A study of Mus musculus with 2 samples.

Results

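The subunits of the mitochondrial respiratory chain that are coded in the nucleus were described across the cell types of the mouse heart field. The members were the genes whose symbols begin with Nduf followed by a, b, c, s or v and a number, the genes Sdha to Sdhd, and those whose symbols begin with Uqcr, Cox4 to Cox8 or Atp5, without pseudogene names. This rule used names and no measured value. It took 84 of the 52550 genes in the files, of which 37 were counted with complex I, 4 with complex II, 8 with complex III, 18 with complex IV and 17 with complex V. The symbols decide the grouping, so that Ndufa4, a protein now placed in complex IV, stands with complex I, and Cox7a2l, Atp5s and Atp5sl are included as well.

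Complex I takes electrons from NADH and complex II from succinate, complex III passes them to cytochrome c, and complex IV, cytochrome c oxidase, hands them to oxygen. Complex V, the ATP synthase, uses the proton gradient built by complexes I, III and IV. A few core subunits come from the mitochondrial genome and the rest from nuclear genes, and several nuclear subunits exist as a form made in most cells and a second form made in particular tissues. In heart and skeletal muscle the forms Cox6a2, Cox7a1 and, in rodents, Cox8b are known to replace part of Cox6a1, Cox7a2 and Cox8a.

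The embryos were CD1 wild type, taken at E10.0. The 2 libraries were made with Drop-seq, a droplet method that counts the 3′ ends of transcripts in single cells with unique molecular identifiers (UMIs). Each library pooled tissue from about 80 embryos and was processed on its own day, so that the libraries are biological replicates of 1 group with no treatment or mutant. The posterior second heart field, a pool of progenitors that feeds the growing heart, and the heart tube were dissected and dissociated together, so every comparison here is between cell types that share libraries.

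The matrix of replicate 1 had 11958912 UMIs in 5000 barcodes, that of replicate 2 14131384 UMIs in 7497. After the filters 3882 and 4717 cells remained, and clusters were named from marker genes, with "-like" in each name because only markers support it. The 13 classes used held 77 to 556 cells and 249517 to 1720928 UMIs in each library, with a median of 1111 to 6040 UMIs per cell and 0.609% to 1.59% mitochondrial UMIs. The libraries shared 82 barcodes, none of them among the cells kept. The cardiomyocyte-like class, 216 and 282 cells, had all 12 of its markers raised and also the progenitor markers Osr1, Tbx5 and Wnt2, and sarcomere genes made up 3.55% and 4.97% of its UMIs. The pharyngeal mesoderm-like class rested on 3 markers (Tbx1, Tcf21 and Ebf3) and had as many markers of second heart field (SHF) progenitors raised, Fgf10 among its leading genes. The neural crest or glia-like class likewise had 6 markers of its own and 6 of mesenchyme.

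No member took part in the clustering. Levels are given as UMIs per 1000000 UMIs of a class in a library (CPM), as mean ± SD over the 2 libraries. Differences are log2 fold changes with their standard errors, from edgeR's quasi-likelihood test on UMIs summed per class and library, with the library as a block and p-values adjusted over all 5845 genes tested. UMIs count transcript 3′ ends and were not scaled by length. Of the 84 members, 80 were tested. Cox8b and Cox8c had no UMI in the class sums, and Cox7b2 and Atp5g2, with 5 and 80 UMIs there, were too low for the test.

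Together the members made up 37591 CPM of cardiomyocyte-like cells in replicate 1 and 44575 CPM in replicate 2, 41083 ± 4938 CPM or 4.11% of all UMIs. In SHF progenitor-like cells they made up 27106 and 31634 CPM. The next highest class, hepatoblast-like, had 30998 CPM on average, and the median over the other 12 classes was 28827 CPM, so that the cardiomyocyte-like level was 1.43 times that median. The lowest cardiomyocyte-like library lay above the highest library of every other class.

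All 5 complexes took part in the difference. In cardiomyocyte-like cells complex I had 13429 ± 1710 CPM, complex II 1215 ± 194, complex III 4395 ± 463, complex IV 10013 ± 1181 and complex V 12031 ± 1391. These were 1.35, 1.42, 1.46, 1.46 and 1.45 times the median of the other classes, and in none of the complexes did the libraries of another class overlap those of the cardiomyocyte-like class. Over the 13 classes the summed levels of complexes I and IV had a Pearson r of 0.958 (Spearman rho 0.874) and those of I and V of 0.971 (0.879), while complex II, with its 4 genes, had 0.734 (0.357) with complex I. These correlations describe 13 classes that share 2 libraries, and their totals leave out mitochondrial, haemoglobin and sarcomere UMIs. The Pearson values are of log levels. With those totals the cardiomyocyte-like and then the erythroid-like class had the highest levels of complexes I, IV and V.

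Erythroid-like cells stood lowest in CPM of all UMIs, with 22647 and 22834 CPM, and there haemoglobin made up 41.3% of the UMIs. Without the UMIs of mitochondrial, haemoglobin and sarcomere genes in the total, erythroid-like cells had 37482 and 41211 CPM and cardiomyocyte-like cells 39667 and 47572. The median of the other classes with the erythroid-like class counted among them was then 29630, and the cardiomyocyte-like level was 1.47 times that. On this scale the erythroid-like libraries overlapped the cardiomyocyte-like ones for complexes I, III and IV and lay below them for complexes II and V.

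**Figure D1:**
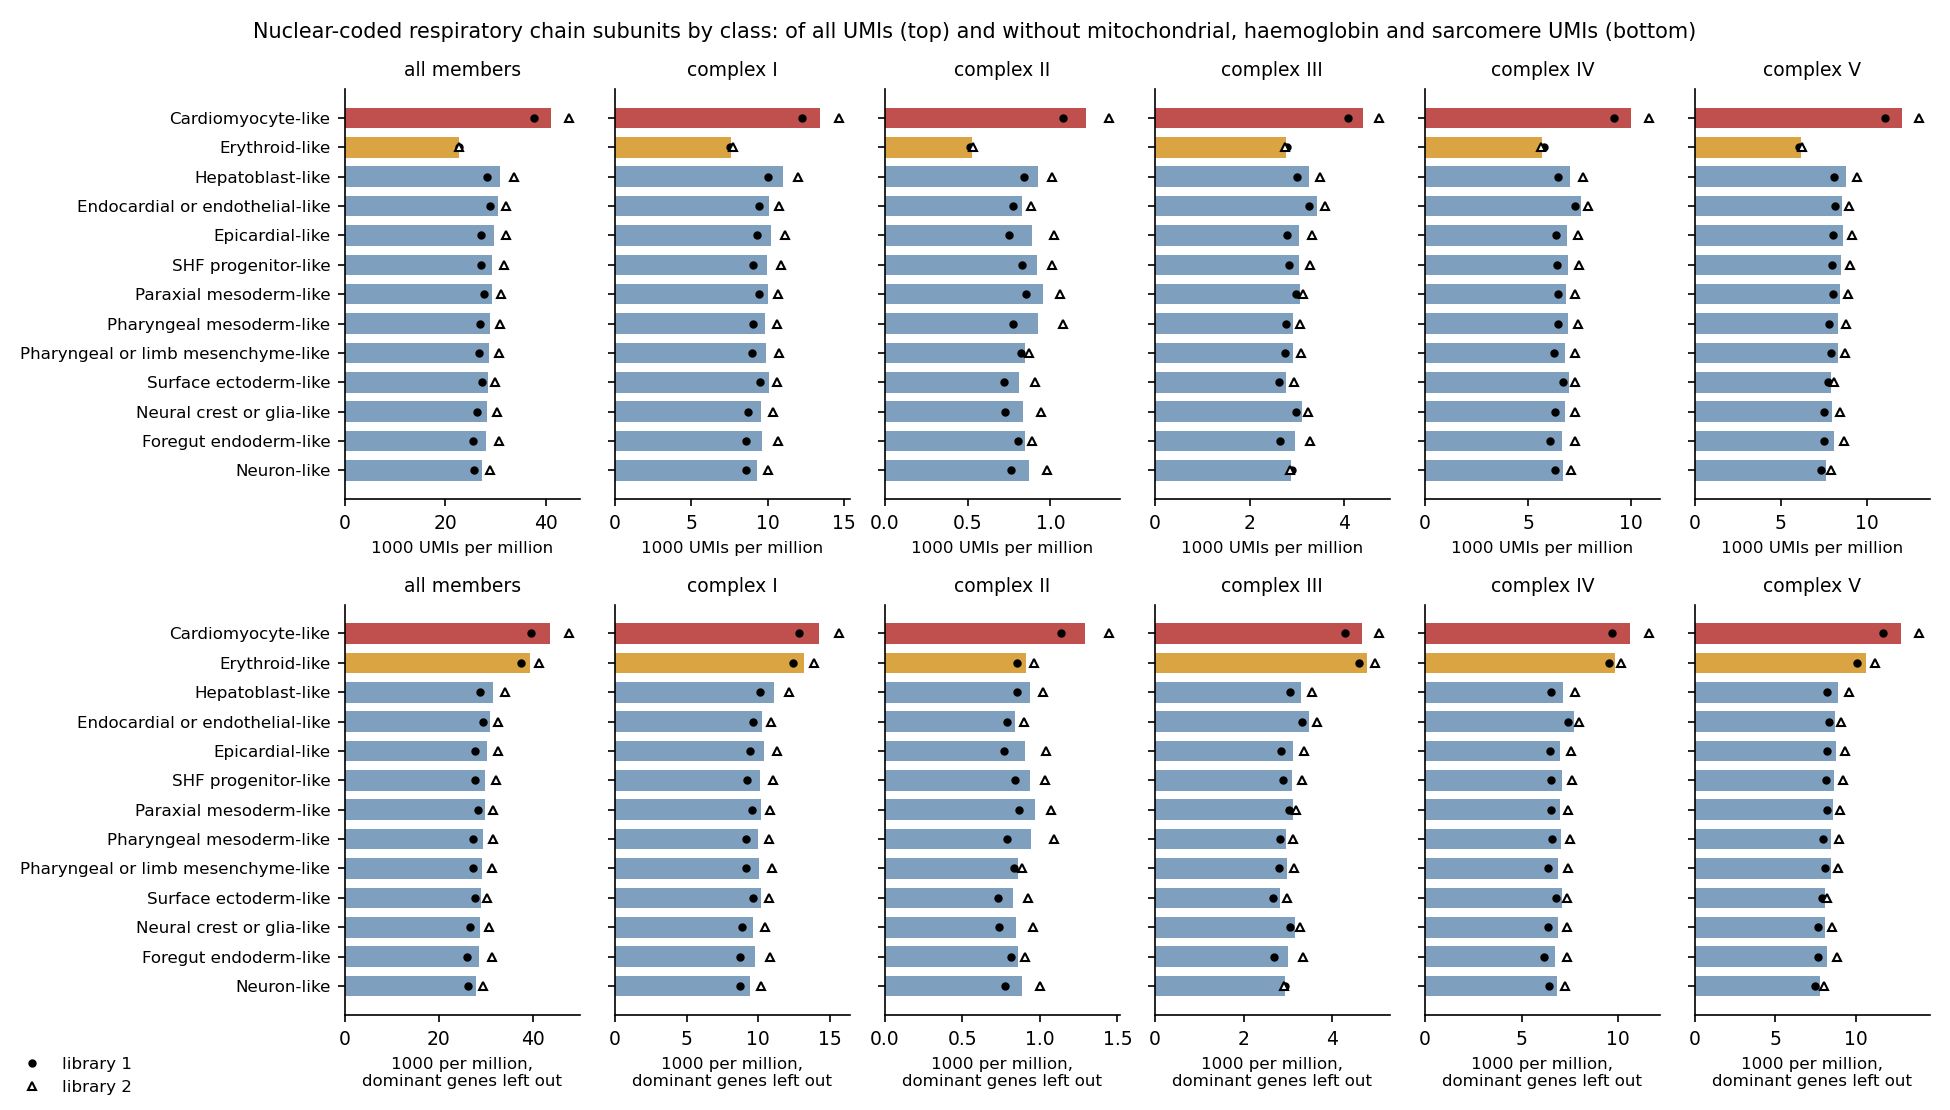
Summed level of the members by class, for all members and for each complex, in 1000 CPM of all UMIs (top) and in 1000 CPM of the UMIs without mitochondrial, haemoglobin and sarcomere genes (bottom). Bars are means of 2 libraries, circles replicate 1 and triangles replicate 2. The cardiomyocyte-like bars are highest in every top panel and the erythroid-like bars lowest; in the bottom panels for all members the 2 classes stand at 43620 and 39346 CPM.

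Gene by gene, 68 of the 80 members tested (85.0%) were higher in cardiomyocyte-like cells than in the mean of the other classes and 0 were lower, where 17.7% of all genes tested were higher and 11.0% lower. The median member had a log2 fold change of 0.48, against 0.01 for all genes. By complex, 31 of 37 rose in complex I, 4 of 4 in complex II, 7 of 8 in complex III, 12 of 15 in complex IV and 14 of 16 in complex V, with medians of 0.44, 0.52, 0.49, 0.52 and 0.56. At an unadjusted p under 0.05, 70 members differed. Without the library in the model 42 of the 80 were higher and 0 lower. Shares of all genes at that unadjusted threshold and in that fit are not reported here. For 63 of the 80 the cardiomyocyte-like class had the highest mean CPM of all 13, against 10.5% of all genes tested, and for 32 both of its libraries lay above both libraries of every other class, against 4.11%.

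Against SHF progenitor-like cells alone, 64 of 80 members were higher and 0 lower, where 13.5% of all genes were higher and 12.5% lower. The median was 0.50 for members and -0.03 for all genes. In complexes I to V 28, 3, 8, 12 and 13 members rose. This comparison shares the cardiomyocyte-like libraries with the one above, and without the library in the model it had 21 members higher and 0 lower. The share of all genes in that fit is not reported here either.

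The largest complex I differences among named members were in small accessory subunits. Ndufc1 had 655 and 696 CPM in the cardiomyocyte-like libraries, 406 and 456 CPM in the SHF progenitor-like ones and 376 and 410 CPM in the mean of the other classes. Its log2 fold change against that mean was 0.75 ± 0.07 (adjusted p = 4.83e-13). Ndufv3, at the NADH-binding end of the complex, had 333 and 375 CPM against 188 and 205 in SHF progenitor-like cells and 197 and 230 in the mean of the others, a log2 fold change of 0.72 ± 0.09 (adjusted p = 1.18e-09). Both cardiomyocyte-like libraries were above both libraries of either reference for these genes. Ndufa4, the most abundant gene of this group, had 1122 and 1455 CPM against 800 and 1086 in SHF progenitor-like cells. Replicate 2 of the progenitor-like cells thus came close to replicate 1 of the cardiomyocyte-like cells. The log2 fold change of Ndufa4 was 0.52 ± 0.07 against all others (adjusted p = 3.34e-09).

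The members of complex I that did not pass included Ndufs3, Ndufs6, Ndufv1, Ndufa9 and Ndufa4l2. There are core subunits among them: Ndufs3 belongs to the arm that carries electrons to ubiquinone, and Ndufv1 binds NADH. Ndufs6 had 308 ± 43.1 CPM in cardiomyocyte-like cells and 318 ± 45.7 in the mean of the others (log2 fold change -0.04 ± 0.09, adjusted p = 0.824). Ndufv1 had 148 ± 23.9 against 132 ± 11.5 CPM (0.14 ± 0.11, adjusted p = 0.393). In cells with at least 2% sarcomere UMIs Ndufv1 (adjusted p = 0.00747) and Ndufs3 (0.0189) passed, and with another random set of clustering genes Ndufv1 did (0.00854). Core and accessory subunits were not tested against each other, and Ndufs1, a core subunit that carries iron-sulphur clusters, rose by 0.60 ± 0.12 (adjusted p = 5.53e-05).

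All 4 subunits of succinate dehydrogenase, the complex shared with the citric acid cycle, rose. The iron-sulphur subunit Sdhb had 424 and 438 CPM in cardiomyocyte-like cells, 300 and 345 in SHF progenitor-like cells and 276 and 305 in the mean of the others, without overlap (log2 fold change 0.55 ± 0.08, adjusted p = 2.42e-07). The membrane anchor Sdhc rose by 0.55 ± 0.10 (adjusted p = 1.36e-05). The other anchor, Sdhd, differed most between libraries, with 231 and 386 CPM, and rose by 0.49 ± 0.09 (adjusted p = 2.78e-05). The flavoprotein Sdha rose by 0.33 ± 0.11 against the others (adjusted p = 0.0161) and had 0.35 ± 0.14 against SHF progenitor-like cells (adjusted p = 0.0566).

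Complex III was led by its small subunits. Uqcr10 had 684 and 796 CPM in cardiomyocyte-like cells, 384 and 419 in SHF progenitor-like cells and 409 and 458 in the mean of the others, again without overlap (log2 fold change 0.73 ± 0.07, adjusted p = 3.59e-13). Against SHF progenitor-like cells alone it rose by 0.93 ± 0.10 (adjusted p = 1.62e-11). Uqcrh, the hinge protein near cytochrome c1, rose by 0.58 ± 0.07 (846 ± 61.4 against 556 ± 49.4 CPM, adjusted p = 9.66e-10) and Uqcr11 by 0.57 ± 0.08 (adjusted p = 8.1e-09). Uqcrc1, 1 of the core proteins, had 345 ± 37.2 against 294 ± 31.8 CPM and did not pass (0.20 ± 0.08, adjusted p = 0.0662). It passed under 10 alternatives, among them total UMIs only (adjusted p = 0.031), DESeq2 (0.0368) and erythroid-like cells left out (0.0037).

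In complex IV the heart and muscle isoforms, described further on, differed most, and the largest difference among the other subunits was in Cox5a, a subunit on the matrix side. Cox5a had 864 and 1220 CPM in cardiomyocyte-like cells, 569 and 748 in SHF progenitor-like cells and 530 and 640 in the mean of the others (log2 fold change 0.80 ± 0.07, adjusted p = 7.34e-14). Even the lower cardiomyocyte-like library was above both libraries of either reference. Cox8a rose by 0.63 ± 0.07 (adjusted p = 1.43e-10), Cox7a2 by 0.52 ± 0.07 (adjusted p = 1.85e-08), Cox4i1 by 0.38 ± 0.06 (adjusted p = 4.35e-07) and Cox6a1 by 0.35 ± 0.07 (adjusted p = 4.03e-05). The general forms were thus higher, not lower, in the class that also held the muscle forms. The 3 that did not pass were Cox7c, at 66.2 ± 2.34 against 60.8 ± 5.85 CPM, Cox6b2 and Cox4i2.

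In complex V the peripheral stalk subunit Atp5o had 1045 and 1261 CPM in cardiomyocyte-like cells, 712 and 755 in SHF progenitor-like cells and 602 and 698 in the mean of the others (log2 fold change 0.80 ± 0.06, adjusted p = 9.39e-16). Atp5g3, 1 of the genes for the proton-carrying c ring, had 785 and 945 CPM against 456 and 528 in SHF progenitor-like cells and 463 and 501 in the mean of the others (0.81 ± 0.07, adjusted p = 2.84e-14). Atp5b, the catalytic beta subunit and the most abundant member in this class at 1849 ± 191 CPM, rose by 0.57 ± 0.06 (adjusted p = 5.66e-12). In none of these did cardiomyocyte-like and reference libraries overlap. Atp5e, the epsilon subunit, had 623 ± 111 against 576 ± 80.9 CPM (0.08 ± 0.07, adjusted p = 0.48), and the sparse Atp5s 15.5 ± 3.33 against 12.9 ± 1.01 CPM (0.22 ± 0.34, adjusted p = 0.709). Atp5e passed with the erythroid-like cells left out, at 0.21 (adjusted p = 0.0193), with another random set of clustering genes, at 0.42, and in cells with at least 2% sarcomere UMIs, at 0.37.

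Some members share sequence with another gene, and reads there cannot always be assigned. In the annotation used, 12 members overlap another gene on the same strand, among them Atp5b, Atp5c1, Cox4i1, Cox7c and Ndufb2, and 29 overlap a gene on the other strand, among them Cox6a2, Cox5a, Atp5o, Uqcrh, Ndufs3, Ndufs6 and Ndufa4l2. Whether the authors counted by strand is not given in the sources used here.

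**Figure D2:**
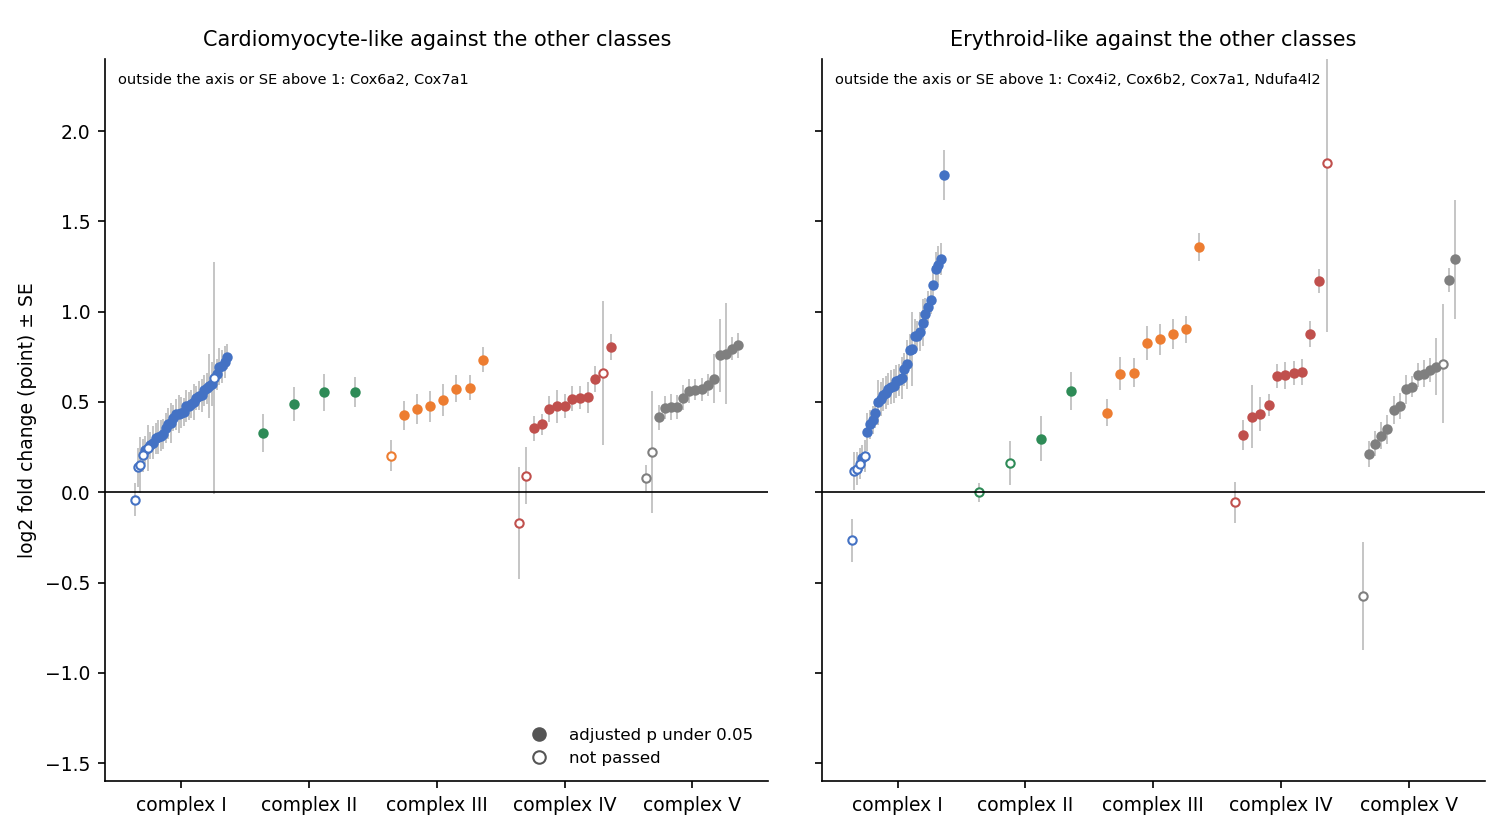
Log2 fold change of each member tested, sorted within its complex, for cardiomyocyte-like cells (left) and erythroid-like cells (right) against the mean of the other classes. Points are estimates, lines standard errors, filled points passed an adjusted p of 0.05 and open points did not. With TMM scaling nearly all points of complexes I to V lie above 0 in both panels. With total UMIs only the median member in erythroid-like cells was at -0.40. Genes beyond the axis, Cox6a2 and Cox7a1 on the left among them, are named in the panels.

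The muscle isoforms of complex IV marked the cardiomyocyte-like class. The promoter stretches of the muscle form Cox7a1 and of the general forms Cox7a2 and Cox6a1 are shown here because they belong to the Cox7a and Cox6a families, whose muscle forms are described next. They are from RefSeq (GRCm38.p6), run 5′ to 3′ on the gene's strand from 250 to 31 bases before the start site, and are chr7:30183921-30184140 on the plus strand for Cox7a1, chr9:79759884-79760103 on the minus strand for Cox7a2 and chr5:115348989-115349208 on the minus strand for Cox6a1. Capitals mark matches, on either strand, to the NRF1, CCAAT and GATA motifs.

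Cox7a1: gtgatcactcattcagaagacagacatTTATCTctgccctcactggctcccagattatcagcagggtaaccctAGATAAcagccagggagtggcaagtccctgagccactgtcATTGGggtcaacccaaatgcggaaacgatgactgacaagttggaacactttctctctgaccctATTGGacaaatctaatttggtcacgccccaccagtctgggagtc
Cox7a2: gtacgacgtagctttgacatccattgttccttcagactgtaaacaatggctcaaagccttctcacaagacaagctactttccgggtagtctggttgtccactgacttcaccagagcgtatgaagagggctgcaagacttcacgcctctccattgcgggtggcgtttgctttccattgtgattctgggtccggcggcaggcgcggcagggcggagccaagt
Cox6a1: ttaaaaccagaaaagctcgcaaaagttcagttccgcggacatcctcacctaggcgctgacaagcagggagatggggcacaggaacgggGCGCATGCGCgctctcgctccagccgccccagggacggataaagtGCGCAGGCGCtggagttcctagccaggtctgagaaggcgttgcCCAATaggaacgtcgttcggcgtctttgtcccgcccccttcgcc

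Cox6a1 had 2 NRF1 motifs, 162 to 153 and 117 to 108 bases before the start, a CCAAT 74 to 70 bases before it and, outside the stretch shown, an ETS match in reverse 16 to 10 bases before it. Cox7a1 had CCAAT, in reverse, at 137 to 133 and at 74 to 70 bases, and GATA motifs at 223 to 218 and 177 to 172. In Cox7a2 none of the searched letters was found. The window of 250 bases before the start held 26 CG pairs in Cox6a1, 14 in Cox7a2 and 4 in Cox7a1, where the median was 14 for the members and 6 for all 27018 genes with a window. Of the 84 members 66 had a window. The NRF1 motif was in 12 of the 66 (18.2%) and in 3.86% of all windows, the ETS motif CCGGAAG in 11 (16.7%) and 7.05%, CCAAT in 29 (43.9%) and 34.5%, and AAGGTCA, bound by oestrogen-related receptors, in 5 (7.58%) and 4.05%. AAGATGGCG (YY1) was in 0 and 0.607%, the MEF2 motif in 0 and 0.518%, the E-box CAGCTG in 6 (9.09%) and 12.8%, and the GATA motif AGATAA in 6 (9.09%) and 10.3%. These are letter matches on either strand, counted separately for each motif, and describe sequence only.

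Cox6a2 (ENSMUSG00000030785.8, GRCm38 chr7:128205435-128206387, minus strand) had 93 UMIs in the cardiomyocyte-like cells of replicate 1 and 109 in those of replicate 2, or 111 and 121 CPM. All other classes together had 9 UMIs, spread over 6 classes, and SHF progenitor-like cells had 1. Per UMI of the class, the cardiomyocyte-like level was 251 times that of all other classes (exact 95% interval 130 to 557, which covers counting error only). Its test against the mean of the others gave an adjusted p of 1.26e-25. The fitted fold change of a gene at or near 0 in most classes depends on the prior count, so the UMI ratio is given in its place.

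Cox7a1 (ENSMUSG00000074218.3, chr7:30184144-30186078, plus strand) had 71 and 91 UMIs in cardiomyocyte-like cells, 84.5 and 101.3 CPM. Another 49 UMIs lay in 11 of the 12 other classes, 14 of them in foregut endoderm-like, 9 in hepatoblast-like and 4 in SHF progenitor-like cells. The ratio to all other classes was 37.0 (26.7 to 52.0) and to SHF progenitor-like cells 65.8 (25.2 to 244), with an adjusted p of 2.7e-22 for the comparison with the mean of the others. Outside the cardiomyocyte-like class Cox7a1 thus had 49 UMIs and Cox6a2 9. Hepatoblast-like cells, with 15.4 ± 4.74 CPM of Cox7a1 from 9 UMIs, were called higher than their mean of the rest (adjusted p = 0.00446), which had 9.64 ± 0.775 CPM with the cardiomyocyte-like class included. No fitted fold change is given, for the same reason as in Cox6a2.

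As a share of its family, Cox6a2 gave 9.80% of the Cox6a UMIs of cardiomyocyte-like cells in replicate 1 (exact 95% interval 7.98 to 11.9) and 9.18% in replicate 2 (7.60 to 11.0), 9.49% ± 0.44. In the other classes the mean share was at most 0.15%, and the highest single library was paraxial mesoderm-like replicate 2 with 0.303%, from 2 UMIs. Cox7a1 gave 6.48% and 6.93% of the UMIs of Cox7a1, Cox7a2 and Cox7a2l, 6.70% ± 0.32, with hepatoblast-like cells next at 1.72%. The general forms therefore made up the larger part in the same class, Cox6a1 90.5% ± 0.44 and Cox7a2 70.0% ± 0.45. These shares depended on which cells entered the class: with another random set of clustering genes they were 16.7% and 11.4%, and in cells with at least 2% sarcomere UMIs 14.4% and 10.2%.

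A UMI of Cox6a2 was found in 71 of 498 cardiomyocyte-like cells and in 8 of 5378 cells of the other classes (0.149%), and a UMI of Cox7a1 in 78 and in 47 (0.874%). By library, 13.4% (exact 95% interval 9.18 to 18.7) and 14.9% (10.9 to 19.6) of cardiomyocyte-like cells had a Cox6a2 UMI, at median depths of 2113 and 1965 UMIs, against 0 of 466 and 1 of 467 SHF progenitor-like cells at 1997 and 1635 UMIs. The count of 0 allows a share of up to 0.644% of cells with a UMI, which is no limit on cells that express the gene. For thinning to 1000 UMIs, cells with fewer UMIs were left out. Of the cells thinned, 11 of 176 and 18 of 228 cardiomyocyte-like ones kept a Cox6a2 UMI, against 0 of 352 and 1 of 344 SHF progenitor-like ones. Barcodes with 10 to 200 UMIs, which carry free RNA, held 8713 and 55494 UMIs and 0 of either gene, a depth too low to show free RNA at the level of the other classes. For comparison, the general form Cox6a1 was seen in 399 of the 498 cardiomyocyte-like cells and in 77.4% of the others.

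Cox8b, the third muscle isoform, was not detectable at this depth. It had 0 UMIs in all classes, which in cardiomyocyte-like cells allows up to 0.408% and 0.383% of the Cox8 UMIs in replicates 1 and 2, and 1 UMI in all barcodes of both libraries. Cox8a accounted for all 735 and 783 Cox8 UMIs there. Cox8c, a testis form, had none.

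In the other isoform families the second forms Cox6b2, Cox4i2 and Ndufa4l2 had their highest shares outside the cardiomyocyte-like class. Cox6b2, known from testis, gave 16.8% and 20.4% of the Cox6b UMIs in erythroid-like cells, 138 and 186 CPM, against 0.99% and 1.95% in cardiomyocyte-like cells. With TMM scaling it was 18.3-fold higher in erythroid-like cells than in the mean of the rest (log2 fold change 4.20 ± 0.17, adjusted p = 5.77e-29). That fold depends on the scaling described below for this class, and as plain CPM the level was 162 ± 34.3 against 20.6 ± 1.86. Surface ectoderm-like cells followed with 6.86% and 4.70%, also above their rest (1.27 ± 0.30, adjusted p = 0.00148). Erythroid-like libraries lay above those of every other class by a wide margin, and all other classes except surface ectoderm-like were below 5%.

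Cox4i2, a form of subunit 4 known for its response to low oxygen and its presence in lung, gave 5.97% and 7.30% of the Cox4 UMIs in surface ectoderm-like cells, from 19 and 53 UMIs. Its level there was 80.2 ± 20.7 CPM against 8.79 ± 4.02 in the mean of the rest (fitted log2 fold change 3.44 ± 0.30, adjusted p = 1.33e-13). The fitted value is not the ratio of these CPM means. It also depends on classes with few UMIs of the gene, such as erythroid-like cells with 2 and 0. Foregut endoderm-like cells had 14.5 and 29.1 CPM and were also called higher (1.45 ± 0.30, adjusted p = 0.000146). Cardiomyocyte-like cells, with 5.95 and 18.9 CPM, overlapped the SHF progenitor-like cells, with 5.61 and 14.0.

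Ndufa4l2, a partner of Ndufa4 known as a hypoxia-response gene, had few UMIs, with more in neuron-like cells than in any other class. Neuron-like cells had 20 and 13 UMIs, 6.19% and 2.90% of the pair. Their level was 37.6 ± 14.3 against 3.78 ± 0.93 CPM in the rest (edgeR adjusted p = 1.61e-07). The fitted fold change is left out, for the same reason as in Cox6a2. Neural crest or glia-like cells had 18 and 5 UMIs, so that most of their signal came from replicate 1. Erythroid-like cells had 0. Of the c ring genes, Atp5g3 gave 83.9% ± 5.7, Atp5g1 15.9% ± 5.7 and Atp5g2 0.16% ± 0.04 of the UMIs in cardiomyocyte-like cells, where Atp5g1 ran from 14.1% in neuron-like to 21.6% in neural crest or glia-like cells among the other classes. Cox7a2l, which joins complexes III and IV into supercomplexes, gave 23.3% ± 0.13 of its family in cardiomyocyte-like cells, between 17.7% in erythroid-like and 30.8% in surface ectoderm-like cells. Cox7b2 had 2 UMIs in cardiomyocyte-like cells and 3 elsewhere.

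**Figure D3:**
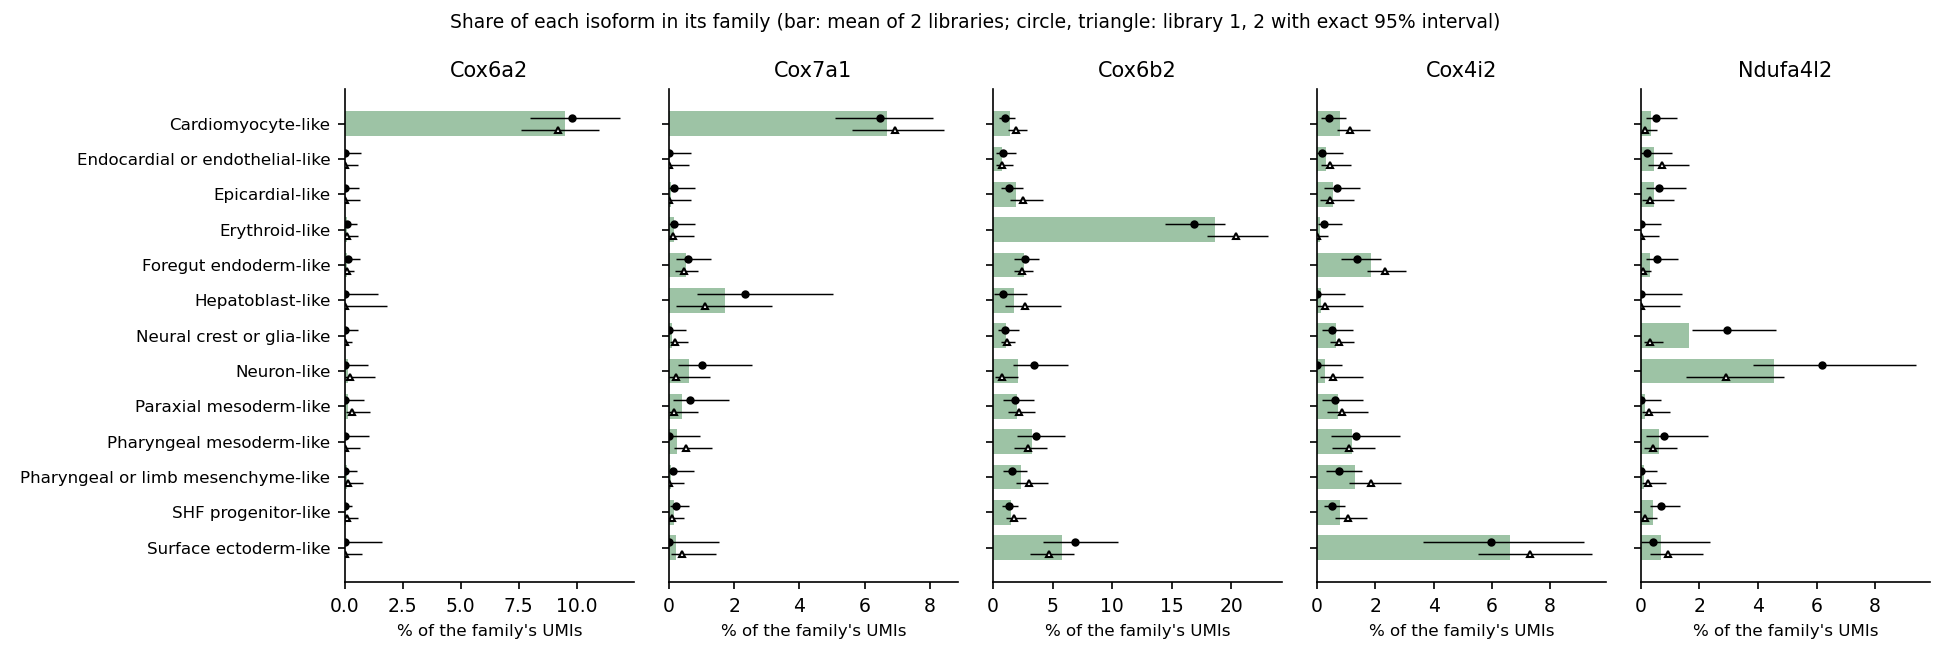
Share of the UMIs of each isoform family that came from Cox6a2, Cox7a1, Cox6b2, Cox4i2 and Ndufa4l2, in percent, by class. Bars are means of 2 libraries, circles and triangles replicates 1 and 2 with exact 95% intervals. Cox6a2 and Cox7a1 are highest in cardiomyocyte-like cells (9.49% and 6.70%), Cox6b2 in erythroid-like, Cox4i2 in surface ectoderm-like and Ndufa4l2 in neuron-like cells.

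The cardiomyocyte-like class was not uniform. Its cells were ranked in each library by the share of their UMIs from 18 sarcomere genes and cut into 3 groups of 72 cells in replicate 1 and 94 in replicate 2. These groups are ranges of a score and not cell types: the low group reached 0.98% and 1.21% sarcomere UMIs, the middle group 3.22% and 6.10%, and the high group 15.0% and 16.9%. Levels here are CPM of the UMIs without sarcomere genes, and no test was made.

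The members summed to 29714 and 34500 CPM in the low group, 33597 and 39292 in the middle group and 54663 and 63480 in the high group, which is 1.84 times the low group. Complexes I to V had ratios of high to low of 1.67, 1.76, 2.03, 1.93 and 1.91. Of the 75 members with at least 50 CPM, 73 were higher in both libraries of the high group than in either library of the low group and 0 were lower, where 21.5% of 4055 genes were higher in this way and 27.7% lower. The median ratio was 1.83 for these members and 0.93 for all genes. The exceptions were Cox7c, with a ratio of 1.04, and Ndufa7, with 1.11. Cox5a rose 2.46-fold, Atp5o 2.56-fold and Atp5g3 2.58-fold from the low to the high group, in values without overlap.

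Cox6a2 had 0 UMIs in both libraries of the low group, 2 and 4 in the middle group and 91 and 105 in the high group, where it reached 358 and 331 CPM. Cox7a1 had 0 in the low group, 5 and 5 UMIs in the middle group and 66 and 86 in the high group, 260 and 272 CPM. In the high group Cox6a2 gave 18.7% ± 3.2 of its pair and Cox7a1 12.8% ± 0.05 of its family. Cox8b stayed at 0 in all 3 groups. Nearly all muscle isoform UMIs of the class therefore came from the cells with most sarcomere transcripts, while the general forms Cox6a1 and Cox7a2 were already at 869 ± 55.7 and 708 ± 85.3 CPM in the low group and rose to 1514 ± 239 and 1394 ± 46.9.

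Markers of other cell types moved with these groups. The 9 SHF progenitor markers summed to 1070 ± 192 CPM in the low group and 583 ± 118 in the high group, with 5 lower and 1 higher without overlap and Foxf1 among those at 0 in the high group. Osr1 went from 346 ± 94.6 to 83.9 ± 1.88, while Tbx5 had 150 ± 7.45 and 188 ± 10.5. The 8 epicardial markers went from 515 ± 27.9 to 145 ± 76.7 (5 lower, 2 higher), with Tbx18 from 181 ± 45.6 to 1.97 ± 2.78. Of these 8, 2 were at 0 in the low group and 2, Msln and Lrrn4, in the high group. The 6 pharyngeal mesoderm markers went from 248 ± 5.90 to 15.4 ± 5.05. The 11 endothelial markers had 114 ± 9.06 and 123 ± 4.15. Their part in the member levels was not tested. Median depth was alike, 2000 ± 75 UMIs in the low and 2140 ± 183 in the high group, with 1.38% and 1.52% mitochondrial UMIs.

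**Figure D4:**
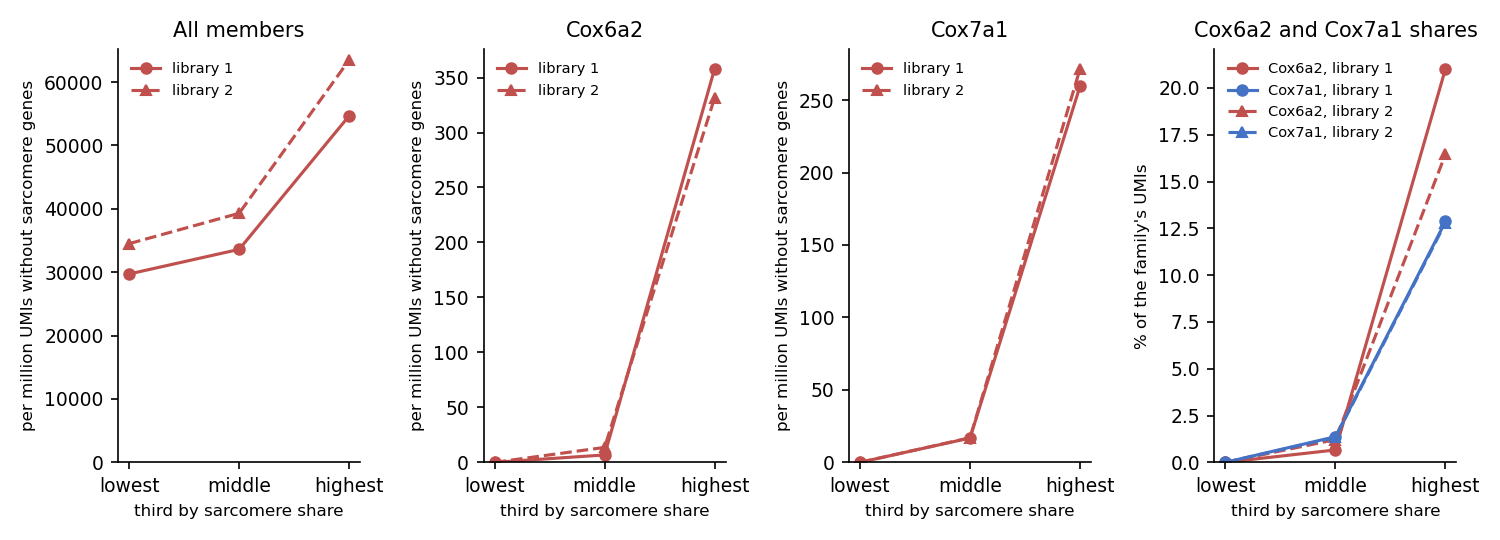
Members within cardiomyocyte-like cells by sarcomere share: summed level of all members, Cox6a2 and Cox7a1 in CPM of the UMIs without sarcomere genes, and the family shares of both isoforms in percent. Circles are replicate 1 and triangles replicate 2. Members rise from 32107 to 59071 CPM on average, and both isoforms are at 0 in the lowest group and highest in the highest group in both libraries.

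Erythroid-like cells, immature red cells that still carry mitochondria, were the other class in which most members were called higher, and the call rested on scaling. With TMM scaling 66 of 80 members (82.5%) were higher than in the mean of the rest and 1, Cox4i2, lower, where 25.8% of all genes were higher and 26.1% lower. With total UMIs alone 7 were higher and 53 lower (all genes 5.08% and 64.5%), and the medians were -0.40 for members and -1.10 for all genes, against 0.62 and -0.10 with TMM. Under both scalings the median member stood above the median of all genes, while its direction changed with the scaling. The part of the haemoglobin share, 41.3% of UMIs, in these levels was not tested.

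By complex, 31 of 37, 2 of 4, 8 of 8, 11 of 15 and 14 of 16 members were higher with TMM. Several members stood above the rest even as plain CPM. Ndufs3, a core subunit of complex I, had 131 and 125 CPM against 77.4 ± 12.1 in the mean of the rest (log2 fold change 1.75 ± 0.14, adjusted p = 2.74e-16). Uqcrq, a small subunit of complex III, had 682 and 626 CPM against 527 in the rest (1.36 ± 0.08, adjusted p = 7.23e-22), and Ndufs7 264 ± 6.04 against 220 CPM (1.29 ± 0.09, adjusted p = 1.88e-18). Cox6a1 (1.17) and Atp5e (1.18) followed. Sdhb was the reverse, with 154 ± 17.1 against 314 CPM and a log2 fold change of 0.00 with TMM. Complex II as a whole had a summed level 1.01 times the median of the rest in CPM of the UMIs without haemoglobin, mitochondrial and sarcomere UMIs, against 1.54 for complex III.

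The remaining classes differed little. More members were called lower than higher in all of them except the hepatoblast-like and the endocardial or endothelial-like classes. Each class was compared with the mean of the rest, which includes the cardiomyocyte-like and erythroid-like classes, where most members were called higher with TMM. These comparisons therefore share samples and a reference that is high in members, and are given side by side. In foregut endoderm-like cells 28 of 80 members were lower (all genes 5.00%) and 2 higher (13.1%), in neuron-like cells 24 lower (4.98%) and 1 higher (8.37%) and in surface ectoderm-like cells 17 lower (4.11%) and 4 higher (9.43%). Median log2 fold changes were small, -0.17, -0.20 and -0.20. These counts depended on the analysis: with erythroid-like cells left out they were 12, 19 and 7, without the library in the model 1, 0 and 1, and with total UMIs alone 6, 8 and 3. Shares of all genes called lower under these settings are not reported here.

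SHF progenitor-like cells had 10 members lower (3.58%) and 0 higher (10.1%), neural crest or glia-like cells 10 lower (5.41%) and 2 higher (12.0%), and pharyngeal mesoderm-like cells 7 lower (1.54%) and 0 higher (6.01%). Paraxial mesoderm-like cells had 4 lower (1.83%) and 0 higher (6.54%), pharyngeal or limb mesenchyme-like cells 4 lower (1.54%) and 0 higher (5.61%), and epicardial-like cells 3 lower (3.20%) and 0 higher (10.1%). Endocardial or endothelial-like cells had 5 lower (7.24%) and 7 higher (15.4%) and hepatoblast-like cells 1 lower (3.80%) and 7 higher (7.73%). Where 0 members were higher by edgeR, 10 to 23 members had an unadjusted p under 0.05 in either direction. The share of all genes at that threshold is not reported here.

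**Figure D5:**
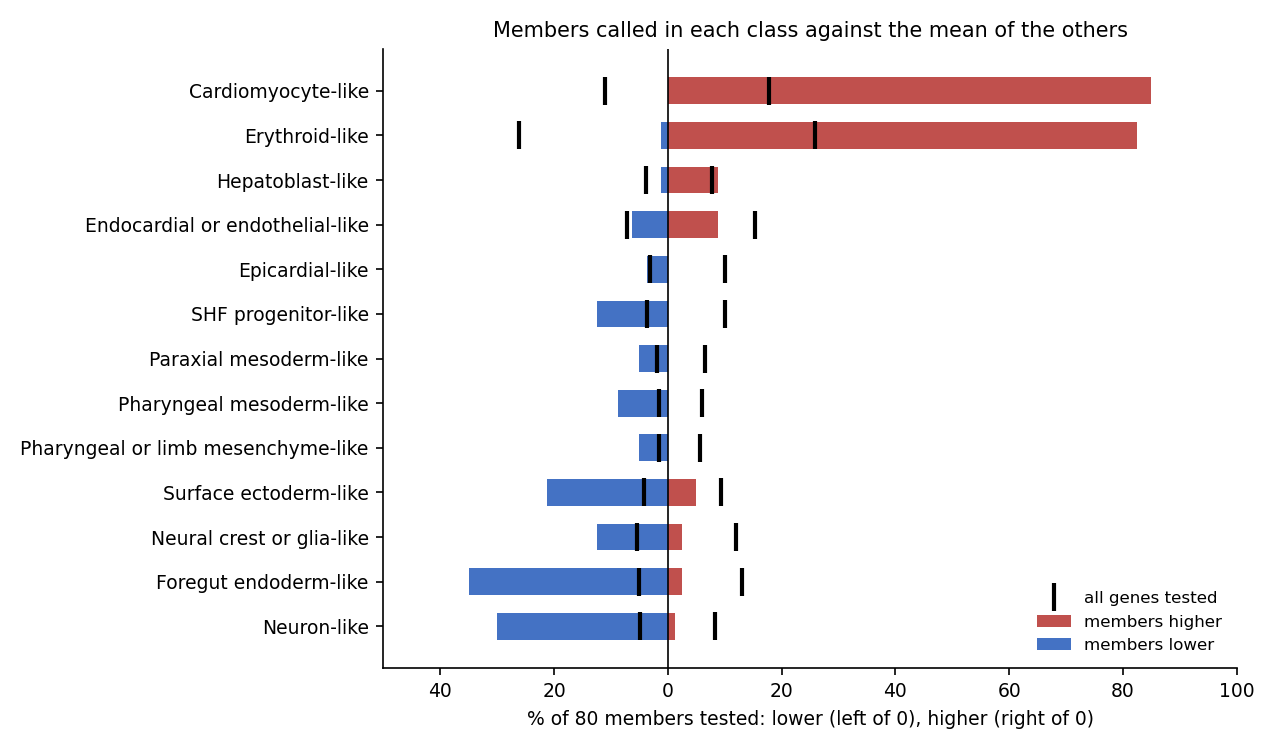
Percent of the 80 members tested that were called lower (left of 0) or higher (right of 0) in each class against the mean of the others, with black ticks for all genes tested. All calls are with TMM scaling. Cardiomyocyte-like and erythroid-like cells have 85.0% and 82.5% of members higher, far past the ticks at 17.7% and 25.8%. With total UMIs only, 7 members were higher and 53 lower in erythroid-like cells. Foregut endoderm-like and neuron-like cells have the longest bars to the left.

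Single subunits stood out in some of these classes. Ndufa8, an accessory subunit of complex I in the intermembrane space, had 320 and 442 CPM in endocardial or endothelial-like cells, above all other classes, of which cardiomyocyte-like cells were next with 202 and 270. It was 2.41-fold above the rest (log2 fold change 1.27 ± 0.10, adjusted p = 3.29e-16), while pharyngeal mesoderm-like cells had less of it (-0.47 ± 0.13, adjusted p = 0.0126), as did SHF progenitor-like cells (-0.29 ± 0.10, adjusted p = 0.0367). Ndufv1 was lower in endocardial or endothelial-like cells (87.2 ± 15.4 against 137 ± 12.2 CPM, -0.66 ± 0.14, adjusted p = 0.000235) and higher in neural crest or glia-like cells (182 ± 4.70 against 130 ± 13.1 CPM, 0.44 ± 0.10, adjusted p = 0.000444). The 2 complex I genes thus had opposite signs in the same endothelial libraries.

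Ndufs6, the zinc-binding subunit of complex I that did not pass the test in cardiomyocyte-like cells, varied among the other classes. Hepatoblast-like cells had 493 ± 74.3 CPM against 303 ± 43.1 in their rest (log2 fold change 0.69 ± 0.11, adjusted p = 2.81e-06), and surface ectoderm-like cells 472 ± 16.6 against 305 ± 50.7 (0.49 ± 0.10, adjusted p = 0.000214). Neural crest or glia-like cells had 241 ± 55.9 CPM (-0.43 ± 0.09, adjusted p = 0.000365), epicardial-like cells 265 ± 39.9 (-0.33 ± 0.10, adjusted p = 0.0159) and endocardial or endothelial-like cells 250.4 ± 62.0 (-0.34 ± 0.11, adjusted p = 0.0128). Hepatoblast-like cells also had more Ndufv3 (0.51 ± 0.13, adjusted p = 0.00312), which was lower in foregut endoderm-like cells (-0.46 ± 0.09, adjusted p = 9.82e-05) together with Ndufb11 (-0.42 ± 0.09, adjusted p = 0.000136).

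Uqcrq was the member that fell most in pharyngeal mesoderm-like cells, which had 387 and 392 CPM against 549 ± 5.03 in their rest, 1.51-fold lower (log2 fold change -0.60 ± 0.10, adjusted p = 1.65e-05). Neuron-like cells had less Atp5g1 (78.3 ± 20.9 against 116 ± 46.4 CPM, -0.66 ± 0.21, adjusted p = 0.0264) and less Ndufs7 (-0.52 ± 0.13, adjusted p = 0.00265), and paraxial mesoderm-like cells less Ndufs7 (-0.37 ± 0.11, adjusted p = 0.0208) and Ndufa6 (-0.37 ± 0.09, adjusted p = 0.00381). Other falls were called for Cox7b in epicardial-like cells (-0.31 ± 0.08, adjusted p = 0.00474), Ndufb4 in SHF progenitor-like cells (-0.39 ± 0.11, adjusted p = 0.00712), and Ndufs4 and Atp5e in pharyngeal or limb mesenchyme-like cells (-0.33 ± 0.10 and -0.29 ± 0.08, adjusted p = 0.0426 and 0.00633).

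Some partners of these subunits are coded in the mitochondrial genome. These 13 genes summed to 9301 ± 249 CPM in cardiomyocyte-like cells and to between 5229 (erythroid-like) and 8955 CPM in the others. The ratio of nuclear to mitochondrial subunit UMIs was 4.41 ± 0.41 in cardiomyocyte-like, 4.35 ± 0.14 in erythroid-like and 4.30 ± 0.73 in hepatoblast-like cells. In the other classes the mean ratio was 3.14 to 3.54. Libraries differed widely in some of these, as in endocardial or endothelial-like cells (3.47 ± 0.59), whose libraries overlapped the hepatoblast-like ones. Of 7 such genes tested, 4 were higher in cardiomyocyte-like cells than in the mean of the others, by 0.16 (mt-Cytb) to 0.27 (mt-Nd5), and 0 were higher than in SHF progenitor-like cells. Cells were chosen with at most 10% mitochondrial UMIs, which bears on these genes.

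Other mitochondrial genes were read from lists of their own, over the same fit. Of 17 genes of pyruvate dehydrogenase and the citric acid cycle, 12 were higher in cardiomyocyte-like cells than in the others and 0 lower, with a median of 0.49. Idh3a, a catalytic subunit of isocitrate dehydrogenase, had 269 ± 33.6 against 93.2 ± 0.45 CPM (log2 fold change 1.52 ± 0.11), and Idh2 rose by 0.69 ± 0.09. Of 11 carriers tested 8 rose and 0 fell, with a median of 0.55. Slc25a4, the muscle form of the ADP/ATP exchanger that supplies complex V, rose from 1094 ± 144 to 2912 ± 513 CPM (1.52 ± 0.06), ahead of Vdac2 (0.72 ± 0.08) and Etfb (0.68 ± 0.10).

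Of 10 genes of fatty acid uptake and oxidation 9 rose and 0 fell, with a median of 0.92, led by the fatty acid binding protein Fabp3 (125 ± 50.2 against 6.33 ± 2.39 CPM, 4.58 ± 0.24), Acaa2 (1.39 ± 0.14) and Acadm (1.06 ± 0.14). Of 43 assembly factors of the complexes 8 were higher and 1 lower, with a median of 0.13. The copper chaperone Cox17 (0.84 ± 0.09) and the complex IV factor Cox20 (0.76 ± 0.11) rose, and the complex I factor Ndufaf2 fell (-0.75 ± 0.14). Shares of all genes called in this comparison, 17.7% higher and 11.0% lower, stand beside these counts.

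Among 11 tested regulators of mitochondrial genes 2 rose, 2 fell and 7 did not pass, where 17.7% of all genes were higher and 11.0% lower. The coactivator Ppargc1a had 42.6 ± 2.03 CPM in cardiomyocyte-like cells and 1.91 ± 0.17 in the others (log2 fold change 4.85 ± 0.45), and Ppargc1b rose by 2.59 ± 0.57. Pprc1, the third member of that family, fell (-1.04 ± 0.31), as did Nrf1, the factor after which the motif above is named (28.3 ± 5.42 against 44.4 ± 1.62 CPM, -0.66 ± 0.22). Of 10 hypoxia-response genes tested 6 rose and 0 fell. Adm (5.08 ± 0.27), Bnip3 (1.31 ± 0.13) and Slc2a1 (0.99 ± 0.15) were among those that rose. The hypoxia-linked isoforms Cox4i2 and Ndufa4l2 did not pass in the same cells, where they had only 22 and 7 UMIs.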

How the data were processed

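UMI counts per gene and barcode were deposited by the authors for both libraries. The build mm10 and Scanpy are named in the submitters' processing notes without versions; no aligner, counter or annotation release is named in the sources used here. Cells needed 400 or more genes and no more than 10% of UMIs from mitochondrial genes. Scrublet marked 0 and 1 cells and had not worked, so a cut set at the top 5% of doublet scores was used in its place. It removed 156 of 4038 and 217 of 4934 cells, somewhat less than 5% of each library. Genes were split at random, and clusters (scanpy 1.11.5, 2000 variable genes, 30 components, 20 neighbours, Leiden resolution 1) used 25257 genes without any member. The other 27293 were left for tests. A class needed 3 markers raised 2-fold in at least 5% of cells and 20 cells in each library; the handling of ties between classes was set after the data were seen. Counts were summed per class and library and fitted with edgeR 4.0.16 (TMM, filterByExpr, quasi-likelihood, library as block, 26 sums, 12 residual degrees of freedom), with Benjamini-Hochberg adjustment over 5845 genes in each of 14 comparisons. DESeq2 1.42.0 was an alternative. Sums of 249517 to 1720928 UMIs set the precision; intervals and the floor of 3 UMIs cover counting error only.

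The libraries are pools processed on different days, so a replicate number is shared by all classes of one library. Deviations of classes from their mean across libraries correlated between classes with r from 0.458 to 0.794 (median 0.658, 78 class pairs), and the library block is the main fit. The 2 libraries differed beyond sampling noise (18991 genes, chi-square divided by its degrees of freedom 22.96). On simulated counts for cardiomyocyte-like cells against the others (5214 genes), 46 of 67 genes changed 1.4-fold, 67 of 67 changed 2-fold and 66 of 66 changed 4-fold were recovered, with 10 of 5014 unchanged genes called. Only genes at 50 CPM or more were changed, no other gene differed between classes, and all had the same dispersion. These rates therefore do not cover sparse members or comparisons in which the scaling matters, such as the erythroid-like one.

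Members and gene lists were chosen with earlier results of these data known. Genes named were, in each complex, the 3 with the smallest adjusted p at 50 CPM or more, up to 3 that did not pass, the isoform families, and the 2 largest changes in each class; others named were chosen after their values were seen. Some genes that this rule names are not reported here. Gene positions were matched to GENCODE M21, where 68 members had the same identifier version. Promoters are from RefSeq, GRCm38.p6. Cells in 3 unnamed clusters and 13 myeloid-like cells were left out of the comparisons.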

Additional observations from a re-analysis of the deposited data

How the results depend on the processing

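Members higher in cardiomyocyte-like cells, 68 of 80, were 52 of 75 in cells thinned to 1000 UMIs. Thinning also left out the cells with fewer UMIs than that. Against SHF progenitor-like cells, 64 became 42 of 75 after thinning. Members higher in erythroid-like cells, 66, became 42 after thinning and 7 with total UMIs only. Members lower in foregut endoderm-like cells, 28, became 48 with another random split of genes, 43 without the mitochondrial filter, 15 at resolution 1.6, 12 with erythroid-like cells left out, 10 without the count filter, 6 with total UMIs only and 4 after thinning. Members lower in neuron-like cells, 24, became 15 with doublets kept, 11 at resolution 1.6, 8 with total UMIs only and 2 after thinning. Members lower in surface ectoderm-like cells, 17, became 11 at resolution 1.6, 9 with DESeq2, 7 with erythroid-like cells left out, 3 with total UMIs only and 2 after thinning. Apart from the erythroid-like count with total UMIs only, the share of all genes called under each alternative setting is not reported here. Whether members shifted more than all genes did is therefore not shown, and the cause of these shifts was not tested. The erythroid-like cells were left out, and cells with at least 2% sarcomere UMIs taken, after seeing the data.

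Without the replicate block edgeR gave 42 members higher in cardiomyocyte-like cells than in the others, 21 higher than in SHF progenitor-like cells, and 1, 0 and 1 lower in foregut endoderm-like, neuron-like and surface ectoderm-like cells. Beside the 0 in neuron-like cells, DESeq2 with the library gave 18 and 35 members had an unadjusted p under 0.05 in edgeR with the block. Shares of all genes for these counts are not reported here.

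The Cox6a2 share of 9.49% was 16.7% with another random split of genes, 14.4% in cells with at least 2% sarcomere UMIs, 10.65% with at least 800 genes per cell, 8.43% at resolution 0.6, 8.14% without the mitochondrial filter, 8.09% with doublets kept and 7.01% after thinning. The Cox7a1 share of 6.70% was 11.4%, 10.2%, 7.57%, 6.09%, 5.96%, 5.91% and 5.77% under the same settings. The Cox6b2 share of erythroid-like cells, 18.6%, was 15.5% after thinning. The summed level of 41083 CPM was 50232 with another random split of genes and 48364 in cells with at least 2% sarcomere UMIs. With 1 library left out these 4 values ran from 9.18% to 9.80%, 6.48% to 6.93%, 16.8% to 20.4% and 37591 to 44575 CPM. Of the values of single named genes under the alternatives, 610 kept direction and call, 24 gained and 14 lost their call, and 0 of those called changed sign. The other 45 were uncalled values that changed sign or values that shifted by more than the spread with 1 library left out. Without a call, Ndufs6 went from -0.04 to as much as 0.26 (another random split of genes), Cox6b2 from -0.17 to as much as 0.23 (without replicate 1), Cox7c from 0.09 to -0.01 (resolution 0.6), Ndufa4l2 from 0.63 to -0.16 (without replicate 1) and Ndufs3 from 0.15 to -0.20 (without replicate 2).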

Other observations

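The 2710 cells of the 3 clusters that could not be named had member shares of 2.72% and 3.19% of UMIs in replicates 1 and 2, below the 4.11% of cardiomyocyte-like cells. They held 2 UMIs of Cox6a2, 8 of Cox7a1, 1 of Cox8b, 38 of Cox6b2, 19 of Cox4i2 and 10 of Ndufa4l2.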
